A study of Rattus norvegicus with 8 samples.

Results

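The heat shock proteins of the cytosol and mitochondria were followed in cultured smooth muscle cells of the rat pulmonary artery (RPaSMC). The cells were exposed to S-nitrosoglutathione (GSNO), a nitrosothiol that donates nitric oxide. The rule named 9 symbols (Hspa1a, Hspa1b, Hspa8, Hspb1, Hspd1, Hspe1, Hsp90aa1, Hsp90ab1 and Cryab) and took every probe set annotated to 1 of them alone. A probe set is a group of short probes on the array that is read as 1 signal. It found 15 probe sets for 6 genes, of 7006 probe sets with a single symbol for 4736 genes on the array. The other 3 symbols, Hspa1b, Hspa8 and Hsp90aa1, had no probe set of their own. They occur only among 10 probe sets whose annotation holds several symbols, and those are given as probe sets that cannot be assigned to 1 gene.

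The groups were untreated cells and cells exposed to GSNO for 1, 2 or 4 h. Each of these 4 groups had 2 arrays, numbered 1 and 2. All were primary cultures from pulmonary arteries of adult Sprague-Dawley rats, freed of endothelium and adventitia before explants were taken. The series design gives the concentration as 100 μmol/L and the sample protocol as 100 mmol/L, and neither was taken as the fact. No time in culture is stated for the untreated cells, so time and GSNO cannot be told apart. The design names 2 independent preparations without tying them to array numbers, so p-values may measure only technical spread. In RNA from whole cultures, fewer cells of a type and less RNA per cell cannot be told apart.

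Heat shock proteins are chaperones: they hold unfolded proteins, help them to fold and hand them to partners. Members of the HSP70 and HSP90 classes work in the cytosol with ATP, the HSP60 chaperonin and its HSP10 lid fold proteins in the mitochondrial matrix, and small heat shock proteins bind unfolding clients without ATP. Under protein damage the factor HSF1 binds repeats of GAA in alternating direction, the heat shock element, and drives transcription of the inducible members. Small heat shock proteins are abundant in muscle, where they bind filaments.

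No heat shock protein probe set passed the test at 1, 2 or 4 h of GSNO. Hspa1a, the inducible HSP70, stood below control on all 6 exposed arrays, without passing. Its lowest mean, at 4 h, rests on 1 array at 14.3 signal units, while the other 4 h array, at 266, was above the 1 h and 2 h means of 235 and 211. Hspd1, the chaperonin, and Hsp90ab1, the constitutive HSP90, stood above control at 4 h on every array pair, again without passing. For Hspd1 most of this came from the arrays numbered 2, at 1.28 and 0.85 on the log2 scale. There the control array was itself lower than that numbered 1. Hspe1 and Cryab overlapped with control at every time, and the probe sets of Hspb1 differed from each other.

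The arrays had the same trimmed mean signal of 500.0, and the cells carried smooth muscle transcripts. Of 10 smooth muscle markers, 9 were on the array and 8 were above the filter on dim signals, and the summed signal ran from 62907 to 89641 in control, 67180.0 to 83730 at 1 h, 58083 to 80558 at 2 h and 54117 to 84729 at 4 h. Over all 8 arrays the smooth muscle actin Acta2 read 6747 to 23826 in its 3 probe sets, the actin-binding Tagln 9539.5 to 21306 in its 2, and the myosin heavy chain Myh11 120.2 to 5037 in its 3. Endothelial markers passed in 1 of 4 (Pecam1), with Vwf and Kdr below the filter, and their summed signal was 108 to 285. Leukocyte markers passed in 3 of 6 (sum 455 to 789), lung epithelial ones in 1 of 5 (sum 280.0 to 582), cardiac and skeletal muscle ones in 6 of 8 (sum 504 to 1175), and fibroblast ones in 6 of 6 (sum 11955 to 27073). The arrays numbered 1 and those numbered 2 were scanned in 2 runs, with different chip lots and fluidics protocols in the array records. The control feature CreX-3 read 11785.5 to 13184.2 on arrays numbered 1 and 3304.6 to 4099.6 on those numbered 2. The 4 h array numbered 1 had the lowest median signal of the 8, 100.0 against up to 141.

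HSP70 proteins bind short hydrophobic stretches of unfolded clients. Hspa1a was measured by probe set Z75029_s_at, with signals of 540.0 and 354 in control, 215 and 255 at 1 h, 233 and 189 at 2 h, and 14.3 and 266 at 4 h, each pair in the order of arrays 1 and 2. Every exposed array was below both control arrays. The 4 h array numbered 1 lay far below the other arrays and under its own 40th percentile of 57.2. At 4 h the fitted log2 difference from control was -2.19 ± 0.81 (SE, from limma, adjusted p = 0.329 and 0.0955 with the replicate block), with -3.99 for arrays numbered 1 and -0.39 for arrays numbered 2. With 1 array in the 4 h group the value was -3.70 for array 1 alone, where limma gave an adjusted p of 0.0107, and -0.68 for array 2 alone. In such fits the lone array is assumed to vary like the other groups. The signal of array 1 is below the offset of 21.1 and below that array's 20th percentile of 16.37. The size of that array's difference and that p therefore depend on the offset. At 1 h and 2 h the values were -0.85 ± 0.81 and -0.99 ± 0.81, with adjusted p at 1.00 for both. The array records place the control and 2 h arrays numbered 1 in 1 experiment and the 1 h and 4 h arrays numbered 1 in another, so the 1 h and 4 h differences for arrays numbered 1 cross experiments. With the recorded experiment as a block, the 1 h value turned to 0.18 and the 4 h value was -1.16. Fold changes are of signal plus 21.1, which understates changes of dim signals.

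The copies Hspa1a and Hspa1b are nearly identical in sequence, and 4 further probe sets carry both symbols, so their signal cannot be split between the copies. The RefSeq table lists Hspa1b as a gene of its own and also among the synonyms of Hspa1a, so the platform's annotation of Z75029_s_at to Hspa1a alone may not separate the copies either. L16764_s_at had 940.1 and 844 in control, 443 and 513 at 1 h, 354 and 323 at 2 h, and 94.1 and 848 at 4 h. Both 1 h arrays and both 2 h arrays were below control, while at 4 h array 1 was low and array 2 was level with control. Its log2 fold changes were -0.87, -1.34 and -1.53 at the 3 times, and none passed (adjusted p = 1.00, 1.00 and 0.529). For Z27118cds_s_at and rc_AA818604_s_at the log2 differences were -1.17 and -0.88 at 1 h, with groups that did not overlap. At 2 h they were -0.66 and -0.36, with groups that overlapped, and at 4 h 0.02 and -0.82. AA848563_s_at was below the filter on all 8 arrays, at 12.1 to 55.6 signal units. At 1 h all 5 probe sets, which read nearly identical copies and include the dim one, were below both controls, as were 13% of all probe sets tested. None of the 4 tested passed, and at 4 h they differed from each other.

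**Figure D1:**
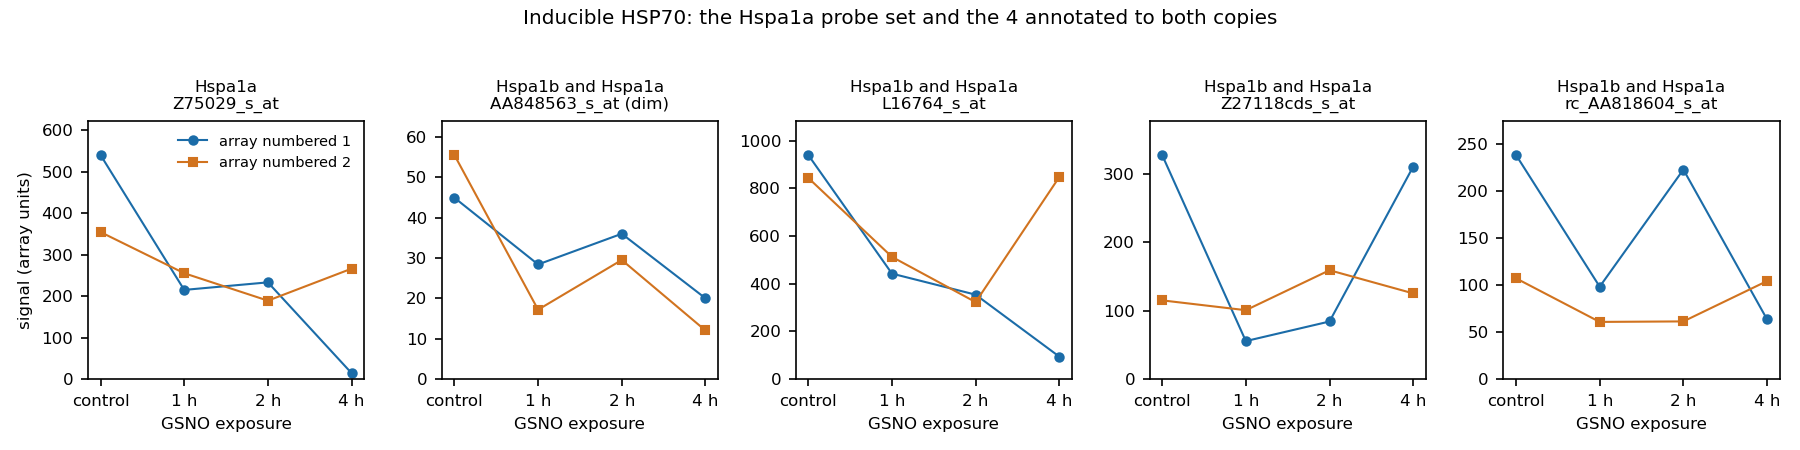
Signal (array units, axis from 0) of the Hspa1a probe set and of the 4 probe sets annotated to both Hspa1a and Hspa1b, in control and after 1, 2 and 4 h of GSNO; circles are arrays numbered 1 and squares arrays numbered 2. The Hspa1a signal is below both controls on all 6 exposed arrays and is 14.3 on the 4 h array numbered 1, where the other reads 266.

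Hspa8 encodes the constitutive HSC70 and shares its 2 probe sets with Haus8l2 in the annotation. M11942_s_at read 9433 and 8066 in control, 9320 and 8429 at 1 h, 7414 and 6894 at 2 h, and 9893 and 8328 at 4 h. Only the 2 h arrays lay below both controls, with a log2 fold change of -0.29 (adjusted p = 1.00). The other, rc_AI234604_s_at, gave 0.05, -0.24 and -0.08 at the 3 times and none passed.

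HSP90 proteins complete the folding of kinases and steroid receptors, and Hsp90ab1 encodes the form that most cells make at all times. Its 4 probe sets differed little over time. The signal of rc_AI008074_s_at was 3458 and 3084 in control, 3528 and 2985 at 1 h, 3662 and 3912 at 2 h, and 4156 and 4681 at 4 h. The 2 h and 4 h arrays stood above both controls, and the 1 h arrays did not. Its 4 h mean was 4419 ± 372 against 3271 ± 264 in control (SD, n = 2 each). The log2 difference was 0.43 ± 0.23 (SE, from limma, adjusted p = 0.546 and 0.168 with the replicate block). The 95% interval ran from -0.09 to 0.95 without adjustment for the number of tests.

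S45392_at and rc_AI007820_s_at were also above both controls on both 4 h arrays, at 0.20 and 0.13, while rc_AI236795_s_at gave 0.29 with 12679.6 and 9675 at 4 h and 10756 and 7584 in control, which overlap. In the between-array pairs of 4 h against control, all 4 probe sets were positive, from 0.14 to 0.26 for arrays numbered 1 and from 0.12 to 0.60 for arrays numbered 2. The fitted differences of the 4 probe sets lay between 0.01 and 0.21 at 2 h and between -0.01 and 0.16 at 1 h. Their between-array pairs ran from -0.07 to 0.40 at 2 h and from -0.10 to 0.33 at 1 h.

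Hsp90aa1, the inducible HSP90, is annotated together with its pseudogene Hsp90aa1-ps17 on 2 probe sets that passed the filter. rc_AI176546_at read 7534 and 5421 in control, 4290.0 and 5287 at 1 h, 6055 and 5275.5 at 2 h, and 4558 and 4811 at 4 h. The 1 h and 4 h arrays were below both controls. Its log2 fold changes were -0.42, -0.18 and -0.45. Those of rc_AA944397_at, also below both controls at 4 h, were -0.06, -0.09 and -0.42. None passed (lowest adjusted p = 0.596). The other probe set that carries the symbol lists several further ones and was below the filter.

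Hspd1 and Hspe1 encode the HSP60 chaperonin and its HSP10 partner, and in the RefSeq table they are neighbours that are transcribed in opposite directions. Their promoter windows, from 250 bases before to 50 after the start, overlap by 211 bases. The shared stretch holds a run of 4 GAA units in alternating direction, spaced by 2 bases. It is printed here on each gene's own strand, 5′ to 3′, from RefSeq's GRCr8 windows, beside the 2 runs of 3 units in the window of Hspa8 and the 2 pairs in that of Hspb1, because these are the members whose windows hold a match. The Hspb1 window holds pairs only, which are common among all windows. Capitals mark the units with the bases between them. In the labels, near the start means only the closer of a gene's 2 stretches. For Hspb1 that one lies 109 to 102 bases before the start and the other 129 to 122. For Hspa8 they lie 55 to 43 and 213 to 201 bases before it.
Hspd1, chr9:64084250-64084287, minus strand: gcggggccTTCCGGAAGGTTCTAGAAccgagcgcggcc
Hspe1, chr9:64084250-64084291, plus strand: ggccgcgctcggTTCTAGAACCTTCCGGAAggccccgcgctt
Hspa8 upstream, chr8:50080289-50080325, plus strand: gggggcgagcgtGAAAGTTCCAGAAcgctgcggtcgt
Hspa8 near the start, chr8:50080447-50080483, plus strand: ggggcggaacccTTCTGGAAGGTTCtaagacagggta
Hspb1 upstream, chr12:26432411-26432442, minus strand: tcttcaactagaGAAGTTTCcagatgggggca
Hspb1 near the start, chr12:26432391-26432422, minus strand: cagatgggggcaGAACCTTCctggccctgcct

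The motif was searched on both strands as GAA and TTC in either order with 2 bases between, and as 3 such units in a row. Windows were found for 6 of the 9 members: pairs in Hspa8, Hspb1, Hspd1 and Hspe1, and runs of 3 in Hspa8, Hspd1 and Hspe1. Over all 33469 windows, 15.9% held a pair and 0.798% held a run of 3. The windows of Hspa1a and Hsp90ab1 held neither, which says only that these letters are not in these windows. The letters TATAAA on the gene's strand occur in 8.8% of windows and in none of the 6 members.

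**Figure D2:**
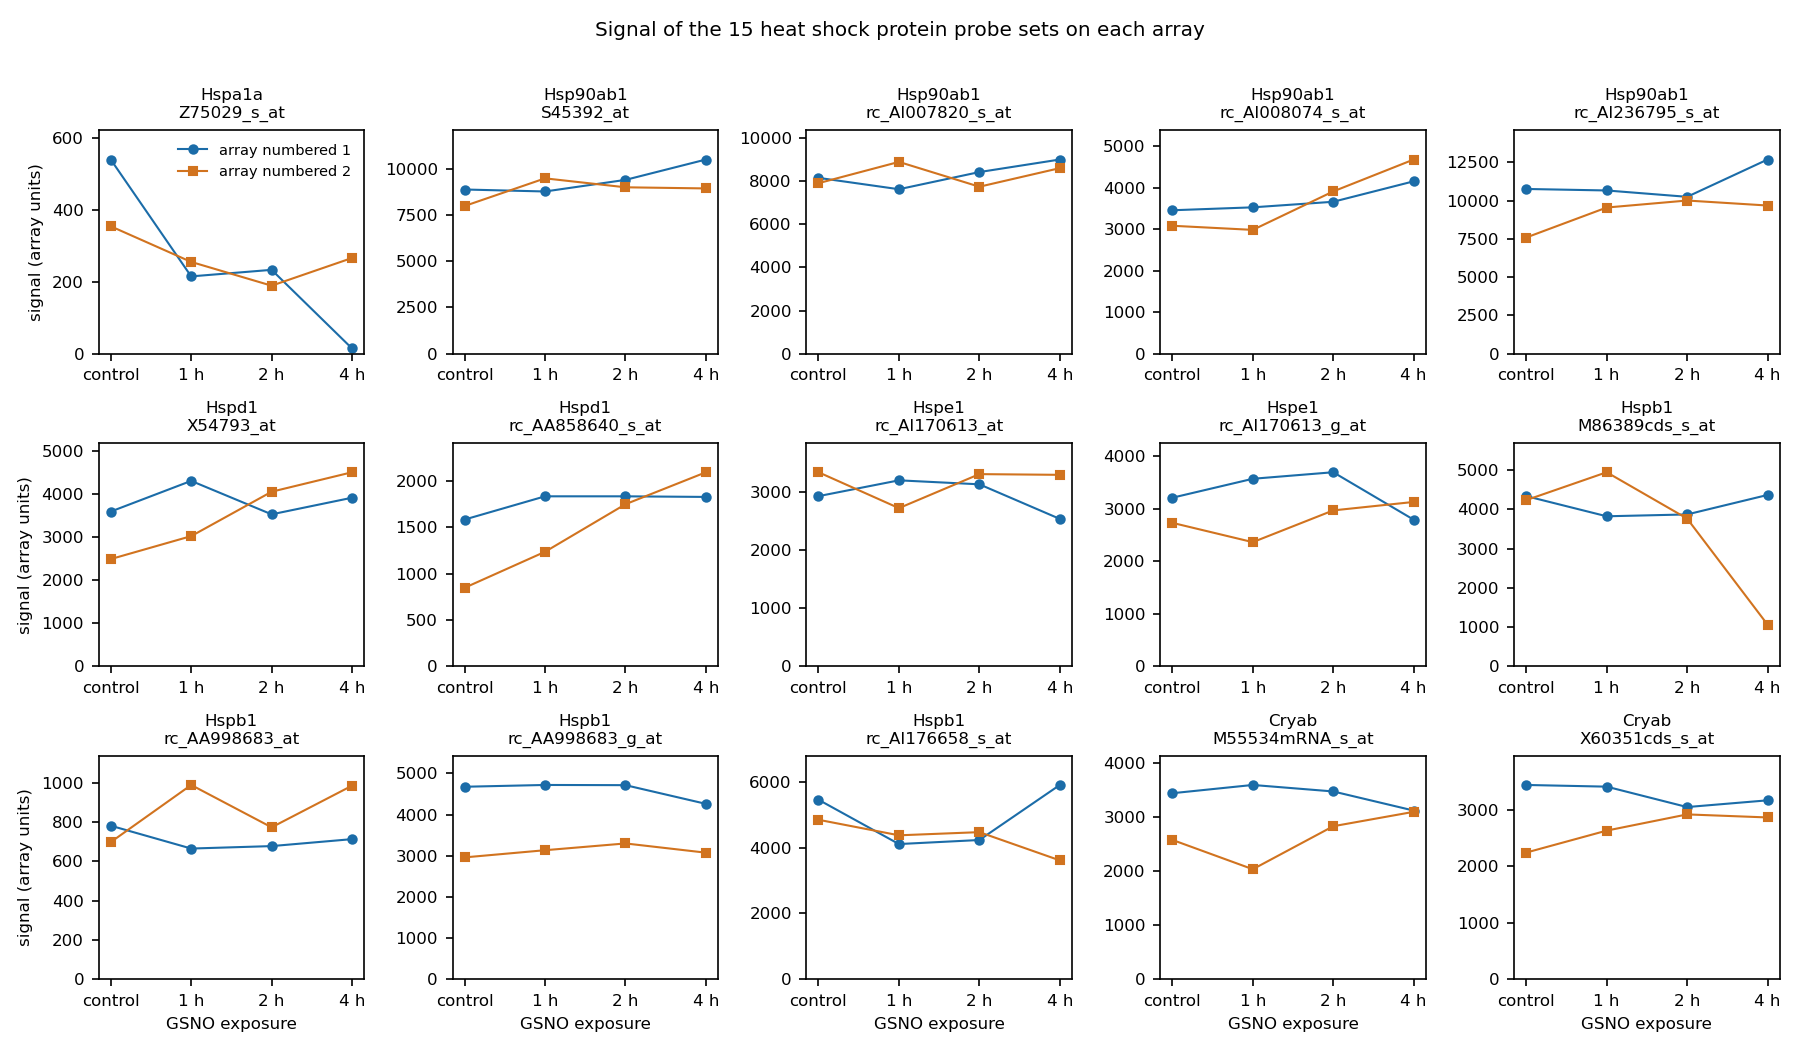
Signal (array units, axes from 0) of each of the 15 probe sets in control and after 1, 2 and 4 h of GSNO, 1 panel per probe set, with circles for arrays numbered 1 and squares for arrays numbered 2. The 2 Hspd1 probe sets and rc_AI008074_s_at, S45392_at and rc_AI007820_s_at of Hsp90ab1 are above both controls on both 4 h arrays. M86389cds_s_at of Hspb1 is at 1063 on the 4 h array numbered 2.

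The mean Hspd1 signal was highest at 4 h in both of its probe sets. rc_AA858640_s_at had 1583 and 847 in control, 1833 and 1235 at 1 h, 1833 and 1748 at 2 h, and 1826.5 and 2093 at 4 h. Both 2 h arrays and both 4 h arrays were above both controls, and the 1 h arrays overlapped with them. Most of the difference came from the arrays numbered 2, at 1.28 on the log2 scale, against 0.20 for arrays numbered 1. The overall 4 h difference was 0.74 ± 0.34 (SE, from limma, adjusted p = 0.474 and 0.114 with the replicate block). The 95% interval ran from -0.03 to 1.52.

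X54793_at showed the same order of groups, at 3599 and 2494 in control, 4312 and 3028 at 1 h, 3535 and 4060.3 at 2 h, and 3921 and 4513 at 4 h. Its 4 h log2 fold change was 0.49 ± 0.28 (SE; adjusted p = 0.603), with 0.12 for arrays numbered 1 and 0.85 for arrays numbered 2. The 2 probe sets of Hspd1 correlated at 0.951 over the 8 arrays, the closest pair within a member gene, as a description of arrays that share their runs. The control array numbered 2 was itself lower than that numbered 1, by -0.53 for X54793_at and -0.89 for rc_AA858640_s_at on the log2 scale, more than the 4 h means stood above control.

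Hspe1 overlapped with control at every time. rc_AI170613_at had 2934 and 3346 in control, 3207 and 2727 at 1 h, 3138 and 3314 at 2 h, and 2542 and 3301.5 at 4 h. rc_AI170613_g_at, which comes from the same sequence, had 3210.3 and 2732 in control, 3571 and 2365 at 1 h, 3696 and 2969 at 2 h, and 2792 and 3130.0 at 4 h. In both, arrays of every group fell within or across the range of control. The 4 h log2 fold changes were -0.11 ± 0.24 and -0.0027 ± 0.27 (SE; adjusted p = 0.915 and 0.999). No test of the difference between Hspd1 and Hspe1 was made.

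Hspb1 encodes HSP27, a small heat shock protein that binds actin filaments and is phosphorylated in stressed cells, and Cryab encodes alphaB-crystallin, its partner in muscle. The 4 probe sets of Hspb1 disagreed at 4 h. M86389cds_s_at read 4335 and 4233 in control, 3821 and 4943 at 1 h, 3868 and 3763 at 2 h, and 4364 and 1063 at 4 h. The 4 h array numbered 1 was level with control while array 2 was the lowest of the 8. Its log2 fold change at 4 h was -0.98 ± 0.55 (SE; adjusted p = 0.578), with 0.01 and -1.97 for arrays numbered 1 and 2. With only the array numbered 2 in the 4 h group the value was -1.99 (limma adjusted p = 0.0334), and with only that numbered 1 it was 0.03. The lone array is again assumed to vary like the other groups, so this p says nothing of the spread at 4 h.

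The other 3 Hspb1 probe sets overlapped with control at 4 h. rc_AI176658_s_at read 5901 and 3609 at 4 h, against 5452 and 4843 in control. rc_AA998683_g_at read 4259 and 3073 at 4 h, against 4675 and 2958 in control, and rc_AA998683_at read 714 and 986 at 4 h, against 782 and 698 in control. Their 4 h log2 fold changes were -0.15, -0.04 and 0.18 (adjusted p = 0.893, 0.986 and 0.874). At 1 h and 2 h rc_AI176658_s_at lay below both controls (4105 and 4371 at 1 h, 4228 and 4467 at 2 h), at -0.28 and -0.24, and did not pass. Correlations among the 4 ran from -0.60 to 0.65 over the 8 arrays. A further probe set, rc_AA799438_at, is annotated to Asb2 as well and gave -0.58 at 4 h (adjusted p = 0.673).

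Cryab read 3447 and 2581 in control, 3600.3 and 2037.5 at 1 h, 3479.9 and 2835 at 2 h, and 3125 and 3102 at 4 h on M55534mRNA_s_at. On X60351cds_s_at it read 3437 and 2239.9 in control, 3407 and 2629 at 1 h, 3046 and 2916 at 2 h, and 3165 and 2862 at 4 h. The groups overlapped at every time. The arrays numbered 2 were lower than those numbered 1 in all 4 groups of both probe sets, on average by -0.38 and -0.30 on the log2 scale, more than any difference of an exposure time from control. The log2 fold changes lay between -0.14 and 0.12 over the 3 times (adjusted p from 0.925 to 1.00). Their 95% intervals lay between -0.86 and 0.80.

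**Figure D3:**
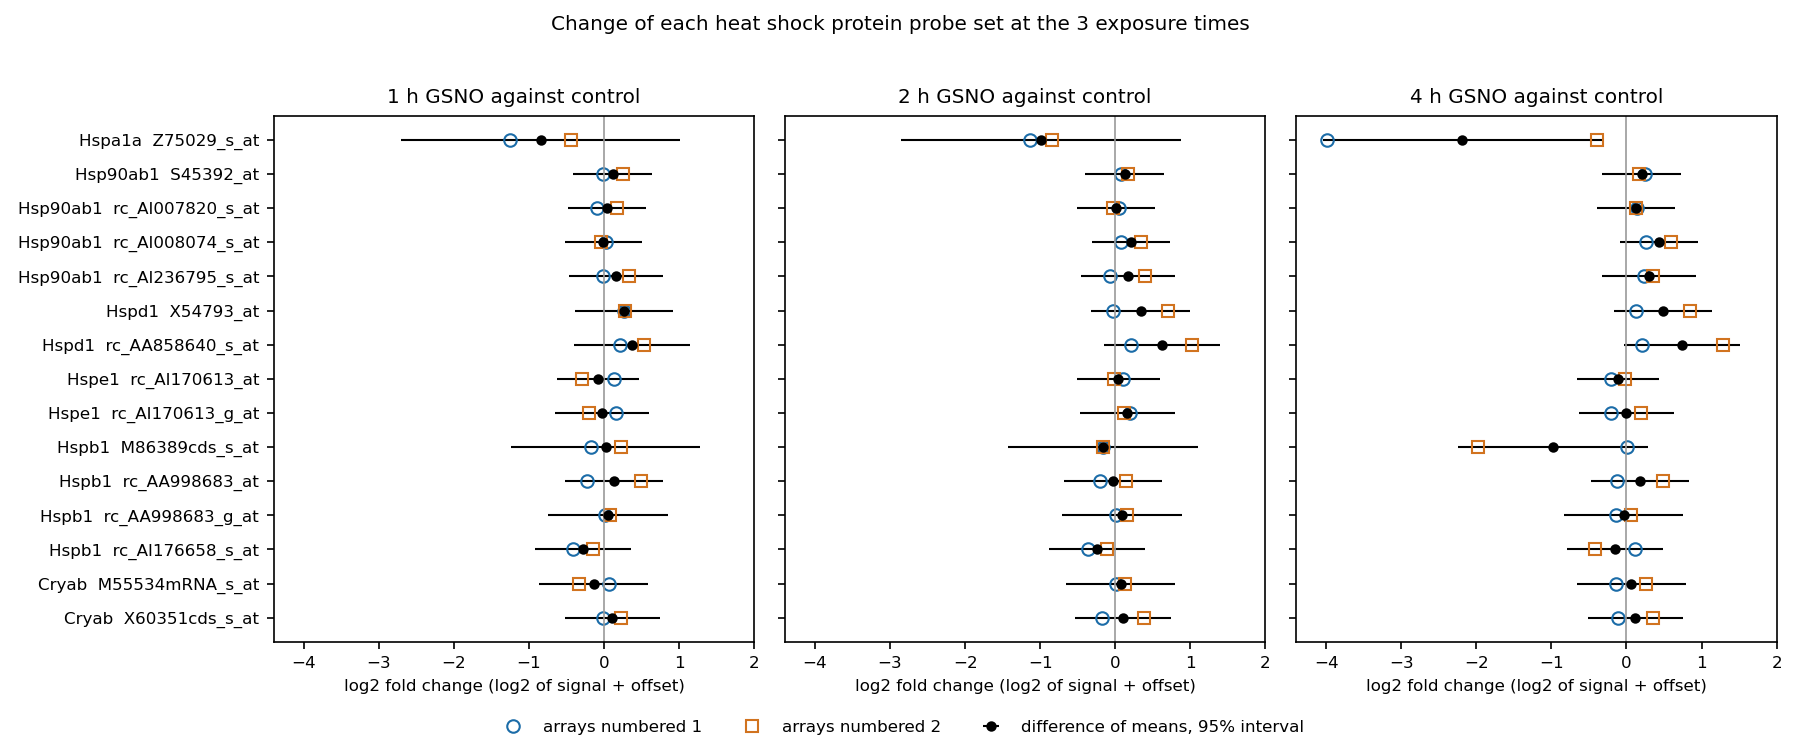
Log2 fold change of each of the 15 probe sets at 1, 2 and 4 h of GSNO over control; black points are group differences with 95% intervals (n = 2 arrays per group), open circles the difference between arrays numbered 1 and open squares between those numbered 2. Intervals cover 0 in all but Hspa1a at 4 h, and the widest separation of circle and square is for Hspa1a and M86389cds_s_at at 4 h.

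Over the 15 probe sets, limma called 0 at 1 h, 0 at 2 h and 0 at 4 h, against 0.527%, 0.97% and 1.53% of the 5877 probe sets tested at each time. Counts of 0 of 15 are near those shares. With the replicate block they were again 0, against 1.34%, 3.16% and 7.93%. At an unadjusted p under 0.05, 0, 0 and 1 passed (Hspa1a at 4 h), and 0, 1 and 4 with the block, where 3.01%, 6.13% and 11.1% of all probe sets did, and 5.73%, 12.1% and 21.2% with the block. The 4 were Hspa1a, which was lower, and both Hspd1 probe sets and rc_AI008074_s_at of Hsp90ab1, which were higher. The F test over the 3 times called 0 of 15 and 1.14% of all probe sets, and with the block 0 of 15 and 5.94%.

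The groups did not overlap in 0 probe sets above and 2 below control at 1 h, in 3 above and 3 below at 2 h, and in 5 above and 1 below at 4 h. Over all probe sets tested 10.1% lay above and 13% below at 1 h, 12.9% and 17% at 2 h, and 13.4% and 27.5% at 4 h. Of the 5 above at 4 h, 2 belong to Hspd1 and 3 to Hsp90ab1, so they rest on 2 genes. The median log2 fold change of the 15 was 0.04 at 1 h, 0.08 at 2 h and 0.12 at 4 h, against -0.05, -0.06 and -0.16 over all probe sets. With arrays scaled to a common median, the 4 h medians were 0.33 and 0.036. Those Hspb1 and Hspe1 probe sets that lay at -0.15 to -0.0027 then turned positive. With quantile normalization the 4 h medians were 0.02 and -0.06, with 8 of the 15 positive, so the gap depends on the scaling. Under the authors' scaling, the median at 4 h between the arrays numbered 1 was 0.01 (-0.22 over all). Between those numbered 2 it was 0.19 (-0.08).

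The 95% intervals give a range around each estimated change, without adjustment for the number of tests. Like the p-values, they may measure only technical spread. At 1 h the upper end of the 95% interval lay below a doubling (1 on the log2 scale) for 12 of the 15 probe sets, and at 2 h and 4 h for 13. At 4 h the exceptions were both Hspd1 probe sets, with upper ends of 1.14 and 1.52. With the replicate block the upper end lay below a doubling for 14 of 15 at each time, and those 2 upper ends were 0.97 and 1.29. Without the block the lower end lay above a halving (-1) for 13 of 15 at each time, the exceptions being Hspa1a and M86389cds_s_at of Hspb1.

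**Figure D4:**
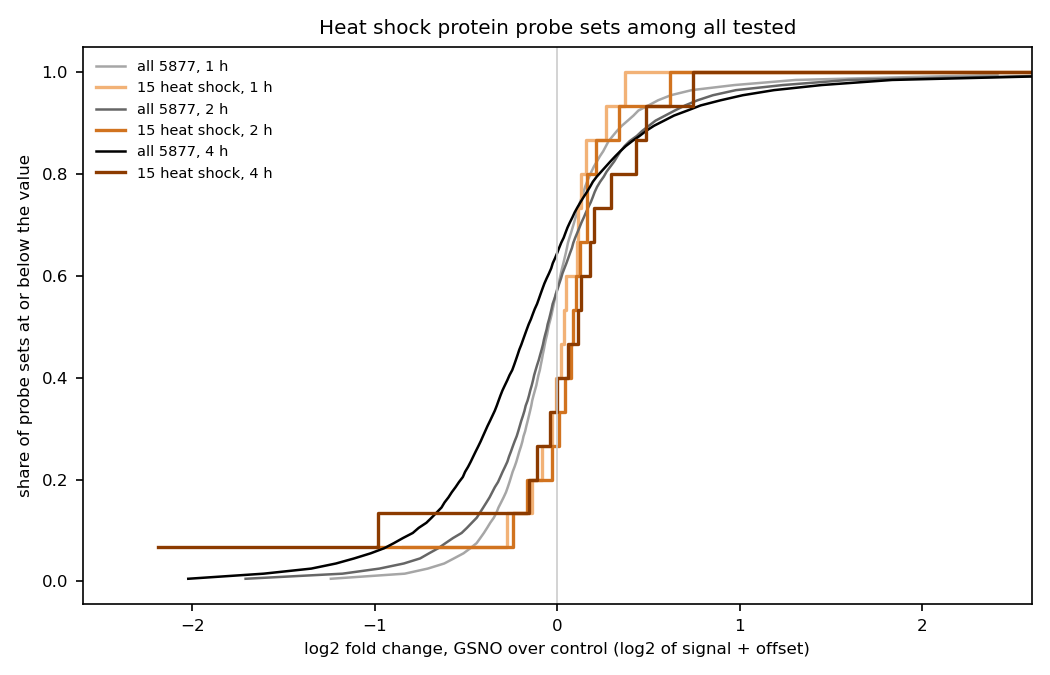
Share of probe sets at or below each log2 fold change, for all 5877 tested (grey to black) and for the 15 heat shock protein probe sets (light to dark orange) at 1, 2 and 4 h of GSNO over control. At 4 h the orange steps run from -2.19 for Hspa1a and -0.98 for M86389cds_s_at of Hspb1 to 0.49 and 0.74 for the 2 probe sets of Hspd1, with a median of 0.12 at 4 h where all probe sets have -0.16.

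Between exposure times, limma also called 0 of 15 for 2 h against 1 h, for 4 h against 1 h and for 4 h against 2 h. The shares over all probe sets were 0%, 0.476% and 0%, and with the replicate block, which again called 0 of 15 in each, 0.034%, 5.1% and 0.544%. At an unadjusted p under 0.05, 0 of 15 passed in each, where 2.79%, 9.04% and 5.62% of all probe sets did. With the block 0, 2 and 0 did so, against 7.33%, 18% and 12.8%. The 2 were rc_AI008074_s_at of Hsp90ab1, higher at 4 h than at 1 h by 0.44 (limma adjusted p = 0.191 with the block), and M86389cds_s_at of Hspb1, with 0.19 for arrays numbered 1 and -2.20 for arrays numbered 2 (limma adjusted p = 0.272 with the block). Groups did not overlap in 1 of 15, above, at 2 h against 1 h (12.1% of all above and 12.7% below), in 1, above, at 4 h against 1 h (13.4% and 24.9%), and in 2, above, at 4 h against 2 h (11.9% and 19.9%). All of these were probe sets of Hsp90ab1.

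A wider list of 63 partners of these chaperones held 27 genes on the array, all 27 above the filter in at least 1 of 47 probe sets. None of the 47 passed at 1, 2 or 4 h, where 0.527%, 0.97% and 1.53% of all probe sets did. The replicate block called 0, 0 and 1, lower, against 1.34%, 3.16% and 7.93% of all probe sets, so the count is no higher than that background. The median over these genes was -0.08, -0.10 and 0.10 at the 3 times, against -0.05, -0.06 and -0.16 over all probe sets. The 1 called was U53922_at of Dnaja1, an HSP40 that delivers clients to HSP70. It read 1317 and 549.5 at 4 h, against 2217 and 3173 in control, with both 4 h arrays lower. The log2 difference was -1.61 ± 0.50 (SE, from limma, adjusted p = 0.206 and 0.0457 with the block), at -0.74 for arrays numbered 1 and -2.49 for arrays numbered 2. The other Dnaja1 probe set gave -0.27 (adjusted p = 0.914).

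Hsf1, which encodes the heat shock factor, had 3 probe sets that differed from each other. At 4 h they gave -0.17, -1.33 and 0.90, and none passed (adjusted p = 0.932, 0.381 and 0.537). rc_AI172097_g_at read 703 and 212 at 4 h, against 1046 and 972.5 in control. X83094cds_at read 250 and 337 at 4 h, against 104 and 201 in control. These point in opposite directions for 1 gene. Hsf2 was not analysed here, as no probe set carried its symbol alone.

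The gene patterns most like that of Hspa1a over the 8 arrays were Cacna1g, a T-type calcium channel (r = 0.98), Igll1 (r = 0.98), Opn1sw (r = 0.97) and Atxn7l3 (r = 0.97), with 1 probe set each. All 4 were lowest on the 4 h array numbered 1, where Cacna1g read 18.0, against 508 on the control array numbered 1. The 8 points share 2 scan runs. Among 1068 probe sets with a mean control signal of 300 to 600, 1.31% were lower by over 2 on the log2 scale on that array pair and 0.936% on the other. The 4 h array numbered 1 also had the lowest median signal of the 8, and the part of this in these values was not tested.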

How the data were processed

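RNA of 8 samples was labelled with biotin and hybridised to Affymetrix rat expression arrays, whose scans the authors analysed in GeneChip 5.0 software (series design). Each deposited number is an intensity on a linear scale; trimmed by 2% at each end, all arrays averaged 500.0, and the authors' scaling was kept. The number of arrays limits the precision.

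Of 8799 features, 59 controls stayed out. Log2 was taken of signal plus 21.1, the median of the arrays' 20th percentiles. A probe set needed its array's 40th percentile on at least 2 arrays, which 5877 reached. GEO's platform annotation gave 7006 probe sets 1 symbol, 308 several and 1426 none. Of the 7006, 6985 had a gene ID in the RefSeq table, with 0 symbols changed. All 15 heat shock protein probe sets were among them. Promoter windows are from RefSeq, GRCr8.

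All 4 groups were fitted together in limma 3.58.1 (R 4.3.3; eBayes with trend, two-sided), leaving 4 residual degrees of freedom, with Benjamini-Hochberg adjustment over 5877 probe sets at 0.05; the code was tested on simulated data. Same-numbered arrays deviated together (correlations from 0.387 to 0.569 over 6 pairs of groups, where 0.1 was required). The array number was therefore used as replicate block in a further fit. Same-numbered arrays also share a scan run and fluidics protocol, so shared processing and shared preparations cannot be told apart. The arrays numbered 1 span more than 1 recorded experiment. Other alternatives were the recorded experiment as block, scaling, offset, filter, trend and leaving out each array. Genes named are all members, called partner genes, Hsf1 and Hsf2, and the 4 genes most like Hspa1a; likeness to Hsp90aa1 could not be computed. The members and lists were chosen with earlier results of these data known.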

Additional observations from a re-analysis of the deposited data

How the results depend on the processing

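No probe set of a heat shock protein passed in any of the 6 comparisons or the F test under the 9 settings that kept all arrays, and the replicate block, with 0 called in each, changed no call. The setting that required the 40th percentile on all 8 arrays kept 14 of the 15 probe sets and left Hspa1a out. Hspa1a was therefore not tested under it. Of the 402 fold changes under the 9 settings, 15 turned direction. With the recorded experiment as block, the turned log2 values were 0.18 for Hspa1a Z75029_s_at at 1 h, -0.37 for Hspb1 M86389cds_s_at at 1 h, 0.0025 for Hspe1 rc_AI170613_g_at at 1 h, 0.027 for Hspe1 rc_AI170613_g_at at 4 h. With arrays scaled to a common median, the turned log2 values were 0.0081 for Hsp90ab1 rc_AI008074_s_at at 1 h, -0.046 for Hsp90ab1 rc_AI007820_s_at at 2 h, -0.012 for Hspe1 rc_AI170613_at at 2 h, 0.18 for Hspb1 rc_AA998683_g_at at 4 h, 0.065 for Hspb1 rc_AI176658_s_at at 4 h, 0.11 for Hspe1 rc_AI170613_at at 4 h, 0.22 for Hspe1 rc_AI170613_g_at at 4 h. With quantile normalization, the turned log2 values were -0.019 for Hspb1 M86389cds_s_at at 1 h, 0.0079 for Hspb1 rc_AA998683_at at 2 h, -0.015 for Hspe1 rc_AI170613_at at 2 h, -0.037 for Cryab M55534mRNA_s_at at 4 h. Leaving out 1 array, 38 of 360 turned and 2 passed: Hspa1a at 4 h without the 4 h array numbered 2, and Hspb1 M86389cds_s_at at 4 h without that numbered 1. In both, the 4 h group holds a lone array, which is assumed to vary like the other groups, so the calls say nothing of the spread at 4 h. The count called at 4 h in these fits was 0 to 1, and that of the F test 0 to 1. At 1 h the turned values ranged over the arrays left out from -0.55 to 0.27 for Cryab M55534mRNA_s_at, -0.20 to 0.41 for Cryab X60351cds_s_at, -0.074 to 0.15 for Hsp90ab1 rc_AI007820_s_at, -0.13 to 0.11 for Hsp90ab1 rc_AI008074_s_at, -0.093 to 0.41 for Hsp90ab1 rc_AI236795_s_at, -0.16 to 0.21 for Hspb1 M86389cds_s_at, -0.15 to 0.41 for Hspb1 rc_AA998683_at, -0.28 to 0.38 for Hspb1 rc_AA998683_g_at, -0.071 to 0.81 for Hspd1 rc_AA858640_s_at, -0.20 to 0.033 for Hspe1 rc_AI170613_at, -0.32 to 0.27 for Hspe1 rc_AI170613_g_at. At 2 h the turned values ranged over the arrays left out from -0.13 to 0.28 for Cryab M55534mRNA_s_at, -0.20 to 0.41 for Cryab X60351cds_s_at, -0.052 to 0.069 for Hsp90ab1 rc_AI007820_s_at, -0.088 to 0.42 for Hsp90ab1 rc_AI236795_s_at, -0.12 to 0.065 for Hspb1 rc_AA998683_at, -0.24 to 0.41 for Hspb1 rc_AA998683_g_at, -0.053 to 0.14 for Hspe1 rc_AI170613_at. At 4 h the turned values ranged over the arrays left out from -0.15 to 0.27 for Cryab M55534mRNA_s_at, -0.19 to 0.42 for Cryab X60351cds_s_at, -1.99 to 0.027 for Hspb1 M86389cds_s_at, -0.049 to 0.41 for Hspb1 rc_AA998683_at, -0.37 to 0.29 for Hspb1 rc_AA998683_g_at, -0.51 to 0.20 for Hspb1 rc_AI176658_s_at, -0.30 to 0.075 for Hspe1 rc_AI170613_at, -0.12 to 0.11 for Hspe1 rc_AI170613_g_at. Over all probe sets the fit without a block called 31, 57 and 90 at 1, 2 and 4 h, and the replicate block 79, 186 and 466; with a common median 83 of 104 calls at 4 h were higher, against 56 of 90. That scaling moved the median of all probe sets at 4 h to 0.036, against -0.16. It moved that of the heat shock proteins to 0.33, against 0.12, with 13 of 15 positive, against 9. Quantile normalization moved the 2 medians to -0.06 and 0.02, with 8 of 15 positive. The causes were not tested.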
